A study of Drosophila melanogaster with 2 samples.

Results

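The enriched regions of H3T3ph at the centromeric end of chromosome arm 2L were examined. They were chosen by position alone, as the listed regions on 2L whose midpoint lies at or beyond 21 Mb of the dm3 assembly. By this rule there were 350 regions, which is 51.8% of the 676 regions of the arm and 5.48% of the 6387 regions listed for the whole genome. They came from a ChIP-seq experiment in S2 cells, a cultured *Drosophila melanogaster* line of embryonic origin, with 1 library of DNA immunoprecipitated with an antibody to H3T3ph (IP) and 1 library of input DNA. Both libraries came from S2 cells, and the labels name no mutant, knock-down or cell-cycle arrest. No sorting of cells is named either, and in a mixed culture a mark at a high level in a few cells, such as those in mitosis, and a mark at a low level in many cells cannot be told apart. With a single IP library, no value could be checked against a replicate.

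H3T3ph is histone H3 phosphorylated on threonine 3 by the kinase haspin. In mitosis the mark is concentrated at the inner centromere, where it helps to place the chromosomal passenger complex with the kinase Aurora B. The chromosome arms of *Drosophila* end toward the centromere in pericentromeric heterochromatin, which is rich in repeats and in HP1a bound to methylated H3K9, and which still holds genes. On 2L, *light* (*lt*), a vacuolar sorting gene that needs heterochromatin around it for its expression, is the best known of them, and the tandem copies of the replication-dependent histone genes lie farther out, near the base of the arm. In the gene order of RefSeq for Release 6, a cluster with 119 histone genes and pseudogenes on 2L lies between *nrv3* and *Lamp1*, and is followed toward the centromere by *step*, by *tsh* and *tio*, which encode zinc finger proteins, and then by *lt* and *cta*, which encodes a G protein alpha subunit. That assembly is not the one of the list, and coordinates were not converted, so no region was assigned to a gene.

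For each region the list gives the reads of the IP and of the input library, and their RPKM, that is reads scaled to region width and to the size of the library. The IP library amounted to 21013056 reads and the input to 23747069, so that the 350 regions on 2L held 1.18% of all IP reads and 0.866% of all input reads. A median region held 554.5 IP reads and 437.5 input reads. The ratio of IP to input is the ratio of the RPKM values, and for several regions together that of their summed reads, each scaled to its library. Intervals are given at 95%, by the Clopper-Pearson method for a ratio, and only account for counting error, and amplified reads without molecular identifiers may be copies of each other. Positions are on 2L of dm3 unless another arm is named.

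H3T3ph regions were dense in the 2L pericentromere and scarce in the rest of the arm. From 21 Mb to the end of the last region at 22984663, over 1.98 Mb, there were 176.4 regions per Mb (exact interval of the count from 158.4 to 195.8). In the other 21 Mb of 2L there were 326 regions, or 15.5 regions per Mb (interval 13.9–17.3). The density in the pericentromere was thus 11.4 times that in the rest of the arm (interval 9.74–13.3, which treats regions as independent, although neighbors are not). In covered sequence the contrast was larger. Listed regions covered 604.7 kb of the pericentromere, which is 30.5% of its length, and 321.4 kb or 1.53% of the rest of the arm, a ratio of 19.9. The difference depended on how regions are counted, since many of those in the pericentromere lie next to each other. When regions within 500 bp were joined, the density ratio was 5.55 (interval 4.55–6.75), and when the list was restricted to its lower 3224 p-values it was 43.9 (interval 33.1–59.0).

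The border at 21 Mb falls in an empty stretch. The last region before it, from 20784821 to 20784962, had 37 IP and 16 input reads, and the region before that, at 20662562 to 20662563, had 10 IP reads and no input read. The first region inside the border runs from 21118194 to 21124919. It is 6726 bp wide and held 1872 IP and 1828 input reads, with a ratio of 1.16 (interval 1.08–1.24). The second, from 21229681 to 21232715, held 922 IP and 848 input reads, with a ratio of 1.23 (interval 1.12–1.35). Between the last region outside and the first inside there were 333.2 kb without any listed region. The regions on either side of it differed in kind, narrow ones of few reads outside and wide ones with many reads and a small ratio inside. In the last Mb before the border there were 20 regions, no more than 4 in any 100 kb, and their median width was 68.5 bp.

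Toward the centromere the number of regions did not grow steadily. In bins of 100 kb, between 0 and 52 regions were found, with a median of 15.5 over the 20 bins. The first 100 kb after the border held no region. A first group of 17 regions lay between 21.3 and 21.4 Mb and covered 37.9% of that bin. It was followed by bins with 1, 5 and 4 regions up to 21.7 Mb. From there the number climbed to 16, 34, 45 and 52 regions in 4 successive bins, and the bin from 22 to 22.1 Mb was the fullest of the pericentromere, with 86.3% of its sequence covered. The next bin had 17 regions and 29.1% covered. Between 22.2 and 22.5 Mb there were 13, 15 and 13 regions, between 22.5 and 22.7 Mb 21 and 29, and between 22.7 and 22.8 Mb only 7. The 84.7 kb up to the end of the last listed region held 40 regions, equal to 47.2 per 100 kb, with 45.9% of the sequence covered. The regions therefore gathered in a main peak about 1 Mb before the last listed region and in a second one just before that region.

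**Figure D1:**
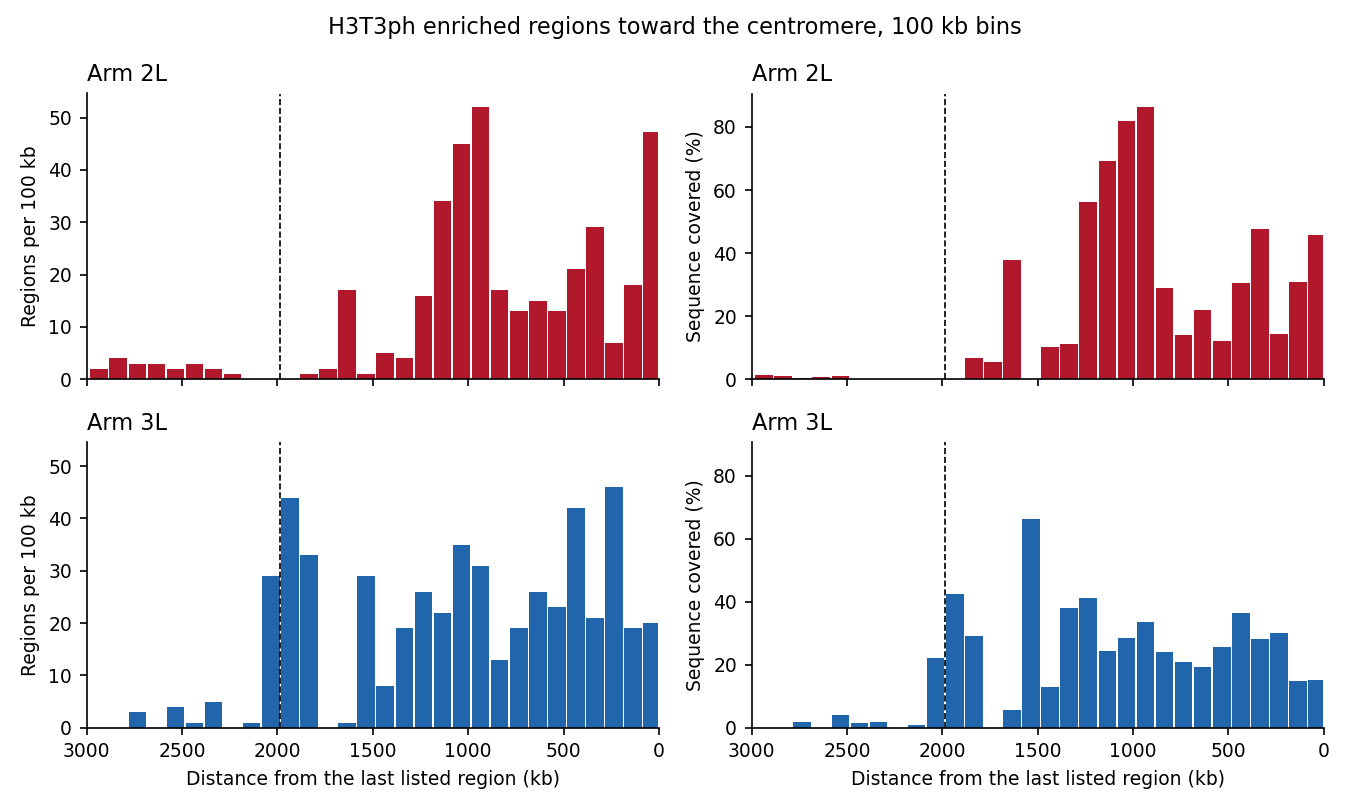
Number of H3T3ph enriched regions per 100 kb (left) and share of sequence they cover (right) in 100 kb bins against the distance in kb from the last listed region of arm 2L (upper panels) and arm 3L (lower panels), with the centromere to the right. The dashed line is the 21 Mb border on 2L and the same distance on 3L. On 2L the bins reach 52 regions and 86.3% covered about 1 Mb from the end, while on 3L the most regions in a bin inside the line is 46.

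The part next to the centromere was the denser one when the pericentromere was split at 22 Mb. From 22 Mb on there were 225 regions, or 228.5 per Mb, and from 21 to 22 Mb 125 regions, or 125.0 per Mb, a ratio of 1.83 (interval 1.46–2.29). This split cuts through the main peak and does not describe an even gradient. Over 4 stretches chosen after the bins had been seen, the density was 42.9 regions per Mb from 21 to 21.7 Mb, 367.5 from 21.7 to 22.1 Mb, 166.2 from 22.1 to 22.9 Mb and 472.5 from 22.9 Mb on, with 10.0%, 73.7%, 25.3% and 43.8% of the sequence covered by the regions whose midpoint lies there. The last stretch is the densest but the shortest, with 40 regions in 84.7 kb. It was ended at the last listed region, and sequence beyond that was not counted. This choice can only raise its density and covered share, so its rank over the other stretches may rest on that end. The stretch from 21.7 to 22.1 Mb held 147 of the 350 regions in 0.4 Mb.

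Neighboring regions were close to each other. The median gap between neighbors was 320 bp in the 2L pericentromere and 24.4 kb in the rest of the arm, with quartiles of 27 and 2609 bp in the pericentromere and of 8232 and 69301 bp in the rest. Of the 349 gaps in the pericentromere, 191 (54.7%) were at most 500 bp and 139 (39.8%) at most 100 bp. In the rest of 2L 23 of 325 gaps (7.08%) were at most 500 bp. Many listed regions thus lay in runs with only short gaps between them. After joining at 500 bp, 159 stretches were left from the 350 regions, and the longest ran from 21942461 to 21981085. It held 22 regions in 38.6 kb, of which 96.9% was covered, with 17495 IP and 13343 input reads and a ratio of 1.48 (interval 1.45–1.52).

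When a block was defined, after the list had been seen, as a run of regions with gaps of at most 10 kb, the pericentromere consisted of 31 blocks, and 8 of these with at least 10 regions held 83.4% of its regions. The longest block ran from 21833123 to 22113119. It held 131 regions, which is 37.4% of all those in the pericentromere, in 280.0 kb, and 83.1% of it was covered. It held 100991 IP and 79029 input reads, a ratio of 1.44 (interval 1.43–1.46). The second block, from 22555304 to 22713190, held 48 regions in 157.9 kb with 50.5% covered and a ratio of 1.3996 (interval 1.38–1.42). The third reached the last listed region. It ran from 22863670 to 22984663 and held 52 regions in 121.0 kb, with 49.6% covered and a ratio of 1.47 (interval 1.442–1.496). Its last region, at 22984526 to 22984663, is only 138 bp wide and held 46 IP and 12 input reads, a ratio of 4.33 (interval 2.26–8.98). By the same definition the longest block in the rest of 2L was 62.0 kb, with 14 regions that covered 2.83% of it, and the longest in the 3L proximal part was 156.4 kb, with 45.8% covered. Blocks were formed within each part only. This 3L block starts at 22557125, close to the start of the 3L proximal part at 22551074, and may be cut there. Blocks depend on the gap allowed. With 5 kb the longest block of the 2L pericentromere was 148.0 kb, against 86.5 kb on 3L, while with 25 kb it was 440.6 kb, against 700.7 kb on 3L, so that the order of the arms turned round.

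Some stretches of the 2L pericentromere had no listed region. The longest gap, of 141.0 kb, runs from 21416374 to 21557396. The next were 104.8 kb, from 21124920 to 21229680, and 69.3 kb, from 22744401 to 22813713. Only reads with a single placement in the genome were kept, and whether these gaps hold repeated sequence, such as the histone gene cluster, was not tested. A gap in the list does not show that the mark is absent.

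Regions in the pericentromere were wide. Their median width was 1371.5 bp, with quartiles of 658.8 and 2270.5 bp, against a median of 527 bp in the rest of 2L and 781 bp in the 3L proximal part. Regions over 1600 bp numbered 147 (42.0%) and made up 73.2% of the covered sequence, while in the rest of 2L they were 63 (19.3%). Regions of at most 50 bp, which are narrower than a fragment and hold few reads, were 2 of 350 in the pericentromere, and 72 of 326 in the rest of the arm. The widest region, from 21360810 to 21370627, is 9818 bp wide and belongs to the first group after the border. It held 3315 IP and 2963 input reads, with a ratio of 1.26 (interval 1.20–1.33). The next in width, of 7778 bp from 21761609 to 21769386 and of 7770 bp from 21698299 to 21706068, had ratios of 1.19 (interval 1.13–1.25) and 1.20 (interval 1.15–1.26). All of the 3 widest lay before the longest block.

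The enrichment over input was small in most regions. Across the 350 regions the IP/input ratio had a median of 1.44 with quartiles of 1.33 and 1.57, and 226 (64.6%) were under 1.5. Each had at least 1 input read, and a count of 0 regions without input allows a share of up to 0.857%, while 41 of the 326 regions in the rest of 2L had none. An IP RPKM of at least 2 times the input RPKM, regions without input included, was found for 24 regions, 6.86% (Wilson interval 4.65–10.0%). In the whole list this share was 47.5%, in the rest of 2L it was 40.2% (131 regions), and in the 3L proximal part 24.7% (117 regions). All 24 regions past this ratio were at most 378 bp wide, with a median of 134.5 bp, so this low share goes with the low number of narrow regions. The authors' p-value was listed as 0 for 35 of the 350 regions, 10.0% (Wilson interval 7.28–13.6%), against 7.62% in the whole list, which lies within that interval. It was listed as 0 for none of 326 regions in the rest of 2L, which allows up to 0.9202%, and for 7.38% in the 3L proximal part (interval 5.36–10.1%, which overlaps that of 2L). Of these 35 regions 23 lay in the longest block. The lowest p-value above 0, 1.12e-13, was listed for the regions at 21902597 to 21905694 and 21909927 to 21911899, both in that block, with ratios of 1.37 and 1.47. The next, 2.20e-13, was shared by the region at 21978147 to 21979608 in the same block, with a ratio of 1.55, and by those at 22588656 to 22591232 and 22651946 to 22654718 in the second block, with ratios of 1.56 and 1.48.

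Among regions of at least 400 bp, 298 in the pericentromere, the ratio ranged up to 1.96. The region at 22104850 to 22105464 had this highest value, with 295 IP and 170 input reads (interval 1.62–2.38). The next were the regions from 22924347 to 22924850, with 213 IP and 125 input reads and a ratio of 1.93, and from 22046774 to 22047269, with 209 IP and 123 input reads and a ratio of 1.92. Their intervals overlap and they cannot be ranked. The highest and the third lay in the longest block, and the second in the block at the end of the arm. The lowest ratio, 1.14 (interval 1.05–1.23), was measured at 21689466 to 21691885, where 1292 IP reads stood against 1282 input reads. The regions from 21557397 to 21560622 and from 21645842 to 21649005 had the same rounded ratio of 1.14, with 1802 and 1791 IP reads against 1784 and 1771 input reads. All 3 lie between the longest gap and 21.7 Mb.

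These regions of low ratio were not low in IP reads. Their input RPKM was 22.3, 23.3 and 23.6, well above the median of 13.5 in the pericentromere. The 3 regions with the highest IP RPKM of all those of at least 400 bp lay between the longest gap and the longest block. They run from 21595292 to 21596530, with an IP RPKM of 30.3 and an input RPKM of 22.1, from 21686949 to 21688834, with 28.2 and 24.2, and from 21734801 to 21736343, with 28.1 and 23.7. An input RPKM of 20 or more was found in 16 regions, and 13 of them lay before 21.8 Mb. The rest of 2L and the 3L proximal part had none. In the bins from 21.5 to 21.8 Mb the input RPKM over listed regions was 20.99, 23.03 and 18.3, and the IP/input ratio was 1.21 (interval 1.16–1.26), 1.15 (interval 1.11–1.20) and 1.21 (interval 1.19–1.23). High IP signal and high input signal thus went together there. The S2 line is known to be aneuploid, and reads of the input library follow the number of DNA copies as well as how many positions can be aligned. The part of either in these values was not tested.

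**Figure D2:**
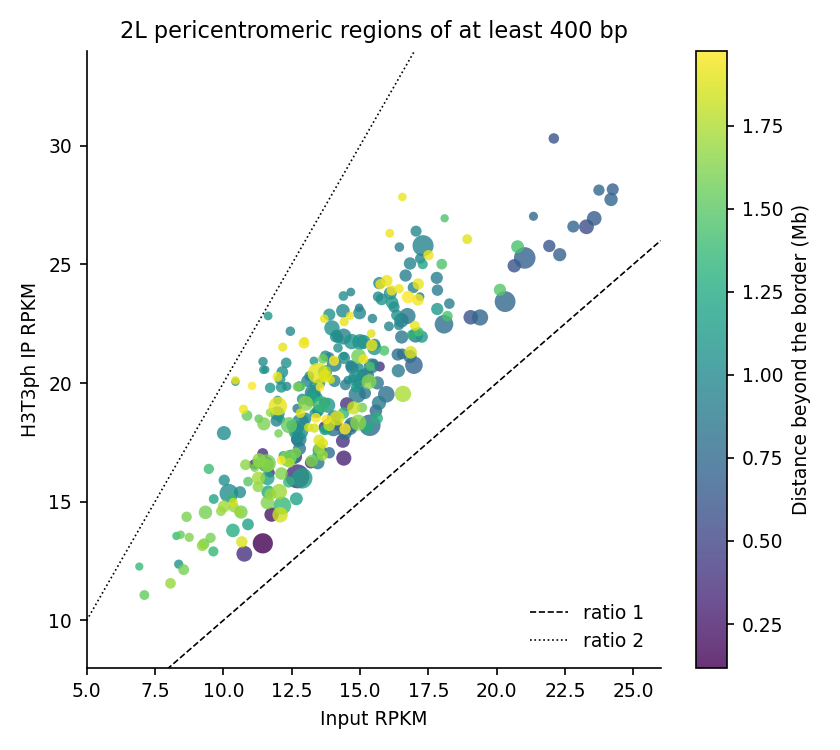
H3T3ph IP RPKM against input RPKM for the 298 regions of the 2L pericentromere of at least 400 bp, with point area growing with region width and color giving the distance beyond the 21 Mb border in Mb. Lines mark ratios of 1 (dashed) and 2 (dotted). All points lie between the lines, and the highest ratio of the points at the right end, with an input RPKM of 20 or more, is 1.37.

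Along the arm the ratio also varied from bin to bin. Over the 13 bins with at least 10 regions, it lay between 1.21 and 1.51. It was 1.31 (interval 1.28–1.35) in the first group, from 21.3 to 21.4 Mb, and 1.21 and 1.31 from 21.7 to 21.9 Mb. In the fullest bins, from 21.9 to 22.1 Mb, it was 1.47 (interval 1.45–1.49) and 1.51 (interval 1.49–1.53). It was 1.33 in the following bin, between 1.32 and 1.48 in the fuller bins from 22.2 to 22.9 Mb, and 1.51 (interval 1.48–1.55) at the end of the arm. Spearman's rho across the 13 bins was 0.60 between the number of regions and the ratio and -0.61 between the distance from the last region and the ratio, while that between the distance and the number was -0.04. The bins were chosen here for their number of regions, and over all 20 bins the distance and the number had a rho of -0.59, with more regions closer to the centromere. Fuller bins and bins closer to the centromere thus both had higher ratios, by rank correlations of like size. These are descriptions of bins of 1 IP and 1 input library, which share the width of the regions and the input depth. Pooled over all regions, the ratio was 1.42 (interval 1.41–1.44) from 22 Mb on and 1.31 (interval 1.30–1.32) from 21 to 22 Mb, a quotient of 1.09 (interval 1.07–1.10). In regions over 1600 bp the quotient was 1.08 (interval 1.06–1.09), and in those between 800 and 1600 bp it was 1.03, with an interval 0.998–1.05 that includes 1.

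**Figure D3:**
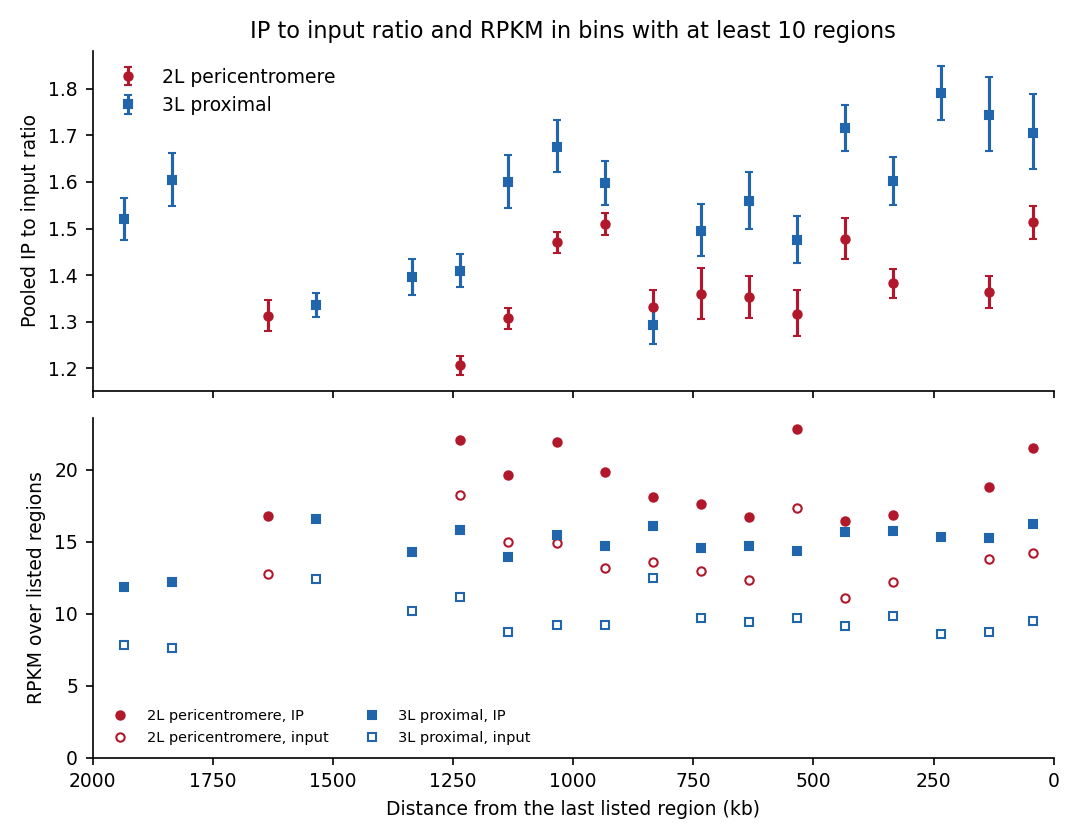
Pooled IP/input ratio with 95% exact intervals (upper panel) and RPKM over listed regions (lower panel, IP filled and input empty symbols) in 100 kb bins with at least 10 regions, against the distance in kb from the last listed region of the arm, for the 2L pericentromere (13 bins) and the 3L proximal part (17 bins). On 2L the ratio is between 1.21 and 1.51, with its high values at the main peak and at the end, and both RPKM values are above those of 3L in the 12 bins that both arms have at the same distance.

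The ratio was also compared with that in the rest of 2L, where it was lower in wide regions, as in the pericentromere. Across the 350 regions in the pericentromere the Spearman correlation of width and ratio was -0.65. In the rest of the arm it was -0.98 over the 285 regions with input reads. A narrow region with few reads can enter a list called at a p-value under 0.05 only at a high ratio. The part of this in the correlations was not tested, and they do not show that wide regions carry less of the mark. Pooled, the ratio was 1.37 in the pericentromere (interval 1.36–1.37) and 1.31 in the rest of 2L (interval 1.29–1.32), a quotient of 1.05 (interval 1.04–1.06). The median over regions with input reads gave the opposite order, 1.44 in the pericentromere (350 regions) against 1.497 in the rest of 2L (285 regions). The 41 regions there without input reads have no ratio. Within a class of width the higher ratio changed sides. In regions over 1600 bp it was 1.33 in the pericentromere (147 regions, interval 1.32–1.34) and 1.21 in the rest of 2L (63 regions, interval 1.20–1.23). In regions between 800 and 1600 bp it was 1.43 in the pericentromere (99 regions, interval 1.41–1.45) and 1.36 in the rest (62 regions, interval 1.33–1.39). Between 400 and 800 bp both were 1.53, with a quotient between 0.959 and 1.04. Between 200 and 400 bp the pericentromere was lower, with 1.71 (34 regions, interval 1.63–1.79) against 1.87 in the rest of 2L (26 regions, interval 1.74–2.01), a quotient of 0.913 (interval 0.838–0.994). Without the longest block the pooled quotient was 1.01 (interval 0.998–1.02), where the block was left out of the pericentromere only and nothing was left out of the rest of the arm.

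**Figure D4:**
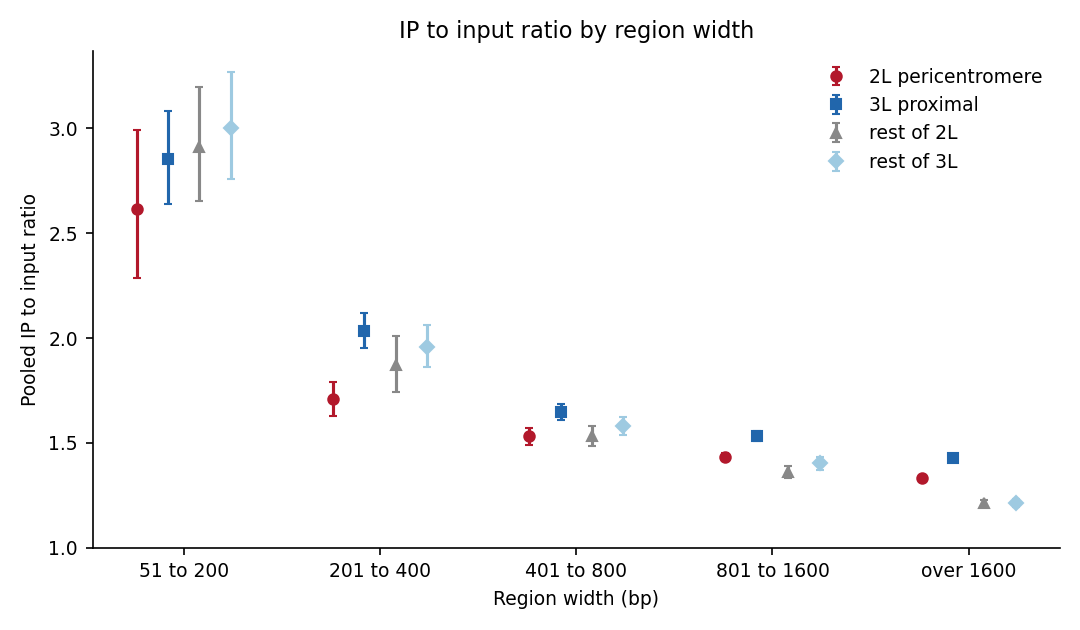
Pooled IP/input ratio with 95% exact intervals by class of region width in bp, for the 2L pericentromere, the 3L proximal part, the rest of 2L and the rest of 3L. Regions of at most 50 bp are left out. Above 800 bp the 2L pericentromere (1.43 and 1.33) lies between the 3L proximal part (1.53 and 1.43) and the rest of both arms.

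The input level differed as well. Summed over all listed regions, the input RPKM was 14.3 in the 2L pericentromere, against 10.3 in the rest of 2L, and the IP RPKM was 19.6 against 13.5. The gap in input was present at the same width. In regions between 800 and 1600 bp the input RPKM was 13.8 in the pericentromere and 9.74 in the rest of the arm. A listed region had to exceed its own input, so these values describe listed regions and not the whole sequence. Among regions with an input RPKM of at least 8 and under 12, a class chosen after the list had been seen, the ratio was 1.47 in the pericentromere (82 regions, interval 1.45–1.49) and 1.28 in the rest of 2L (116 regions, interval 1.26–1.29). At a like input level the pericentromere thus exceeded the rest of the arm by more than in the pooled values, with a quotient of 1.15 (interval 1.13–1.17). Width was not matched in this class, with a median of 1126.5 bp in the pericentromere and 1339.5 bp in the rest of 2L. Within the pericentromere, regions with more IP reads per length also had more input reads (Spearman's rho of 0.81 between IP and input RPKM over 350 regions). This rho was 0.52 over 470 regions in the 3L proximal part and 0.11 over 285 regions in the rest of 2L. The parts differ in width, and rho was not taken at like widths. Regions of at most 50 bp were 2 of 350 in the pericentromere and 72 of 326 in the rest of 2L, with or without input reads. Those in the rest of 2L had a pooled IP RPKM of 43.4 and input RPKM of 1.80.

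Arm 3L was compared over the same length, that is the last 1.98 Mb before its last listed region at 24535737, starting at 22551074. The 2L pericentromere had fewer regions, 350 against 474 in the 3L proximal part, and its density of 176.4 regions per Mb was 0.738 times the 238.8 regions per Mb on 3L (interval 0.641–0.850). With regions wider than the median of the list, 302 against 342, the ratio was 0.883 and its interval, from 0.754 to 1.03, includes 1. So did the intervals with the lower 3224 p-values, from 0.744 to 1.05, and with the border at 22 Mb, from 0.729 to 1.05. In covered sequence the order was the other way, with 30.5% on 2L against 26.9% on 3L, a ratio of 1.13. The median region was 1371.5 bp wide on 2L against 781 bp on 3L. Input RPKM over listed regions was 14.3 on 2L against 9.90 on 3L, and its part in coverage and width was not tested. With the longest block of each arm left out, the coverage ratio was 0.862. With that of 2L alone left out, which can only lower the share on 2L, it was 0.810. A middling bin was fuller on 3L, with a median of 22.5 regions in a bin, against 15.5 on 2L, and no bin of 3L had more than 66.1% of its sequence covered. The start of the dense part also differed. On 3L the bin just outside the compared length already had 29 regions, while on 2L the corresponding bin, from 20.9 to 21 Mb, had none.

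The pooled ratio was lower on 2L than on 3L. In 3 of the 4 classes of input level it was higher on 2L, and there the median region of 2L was narrower. Over all regions the ratio was 1.37 in the 2L pericentromere (interval 1.36–1.37) and 1.51 in the 3L proximal part (interval 1.49–1.52), a quotient of 0.908 (interval 0.900–0.917). The difference was there in each class of width above 200 bp, with quotients between 0.839 and 0.935 whose intervals lay below 1. Between 50 and 200 bp the interval, from 0.786 to 1.07, includes 1. At the same distance from the last region, 12 bins had at least 10 regions on both arms, and in 11 of these the ratio was lower on 2L, with intervals that did not overlap. The input RPKM was higher on 2L in all 12 of these bins, and so was the IP RPKM. Over all listed regions the input RPKM was 14.3 on 2L against 9.90 on 3L, and the IP RPKM was 19.6 against 14.9. In classes of input RPKM, 2L was lower in 1 of the 4 that both arms hold. This was the class of at least 8 and under 12, with 1.47 on 2L (82 regions, interval 1.45–1.49) and 1.51 on 3L (238 regions, interval 1.495–1.522), a quotient of 0.973 (interval 0.956–0.990). Median widths in this class were close, 1126.5 bp on 2L and 1152.5 bp on 3L. Under 8, 2L was higher, with 2.17 (22 regions, interval 1.98–2.38) against 1.81 on 3L (203 regions, interval 1.78–1.85), and the regions of 2L in that class were narrower, with a median width of 137 bp against 349 bp on 3L. From 12 to 16, 2L was higher as well, with 1.38 (178 regions, interval 1.37–1.39) against 1.29 on 3L (24 regions, interval 1.26–1.32). The median width there was 1548 bp on 2L and 2001 bp on 3L. From 16 to 20 the ratio was 1.35 on 2L (52 regions, interval 1.33–1.36) and 1.28 on 3L (9 regions, interval 1.25–1.32). Median widths were 1558 bp on 2L and 1731 bp on 3L. The classes of input level were set with the list in view. The part of the input level in the lower pooled ratio of 2L was otherwise not tested.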

How the data were processed

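ChIP-seq reads of 50 nt were aligned by the authors to dm3 with Bowtie 0.12.5, keeping reads with 1 placement and up to 2 mismatches. Over-amplified reads had been removed, and regions were called against input with htSeqTools 1.4.0 in R 2.15, with minReads set to 10 and a Benjamini-Hochberg p-value under 0.05. The deposited list holds, for each region, the raw read counts of both libraries, the RPKM values and the p-value, all made by the authors. Its columns have no names. The first of each pair was taken as the IP, whose RPKM was higher in 6387 of 6387 regions, and library totals were solved from the counts and RPKM. Each library was made from 8.5 ng of DNA with 18 PCR cycles.

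Density ratios have exact conditional intervals, pooled ratios exact (Clopper-Pearson) intervals, quotients of ratios an interval from 4 Poisson counts on the log scale, and shares Wilson intervals, all at 95%. For a count of 0 regions the upper limit given is 3 divided by the number of regions. No p-value was computed. Coordinates are counted from 1, and arm ends were taken as the end of the last region. Alternatives were a stricter p-value, wide regions only, joining at 500 bp, borders at 20 and 22 Mb, medians, 1 class of width, 1 class of input RPKM and leaving out the longest block of 2L or of both arms. Regions were named by position next to the border or at the end of the arm, and as the 3 widest, of highest or lowest ratio, of highest IP RPKM and of lowest p-value above 0, and the 3 longest gaps. The work used Python 3.11.15 with scipy 1.17.1, pandas 2.3.3, numpy 2.4.6 and matplotlib 3.10.9, and the code was tested on made-up regions. The rule for the regions and all comparisons were chosen with earlier results of these data known. No genome sequence was used.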

Additional observations from a re-analysis of the deposited data

How the results depend on the processing

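The higher density and coverage of the 2L pericentromere over the rest of 2L had the same direction in each alternative run. Its density ratio over 3L stayed below 1 in all 7, with an interval that includes 1 in 3 of them (lower p-values, wide regions and the border at 22 Mb). Its ratio quotient over 3L stayed below 1 in the alternatives given here. In 3 of 4 classes of input RPKM 2L was higher, with a median region narrower than on 3L. Taking the lower 3224 p-values of the list gave density ratios of 43.9 over the rest of 2L and 0.885 over 3L, a coverage ratio of 37.95 and a ratio quotient of 1.11 over the rest of 2L. Regions at least as wide as the list's median gave density ratios of 17.7 and 0.883 and quotients of 1.07 and 0.919. Joining at 500 bp gave density ratios of 5.55 and 0.612. With the border at 20 Mb, density was 8.10 and coverage 12.9 times that of the rest of 2L, and with the border at 22 Mb coverage was 12.2 times, the density ratio over 3L 0.875 and the quotients 1.09 and 0.897. The quotient over the rest of 2L turned round with medians over regions with input reads (0.965, and 0.871 over 3L). Regions between 800 and 1600 bp gave 0.935 over 3L and 1.03 for the part from 22 Mb over that from 21 to 22 Mb. The next 4 kinds of alternative were chosen after seeing the data. An input RPKM of 8 to 12 gave 1.15, 0.973 and 1.14 for the 3 quotients. Without the longest block, density ratios were 8.28 and 0.538 and quotients 1.01 and 0.876, and the coverage ratio over 3L turned round to 0.810. The block was left out of 2L alone there. Without the longest block of each arm, the density ratio over 3L was 0.592, the coverage ratio 0.862 and the quotient 0.879. The longest block measured 148.0 kb with gaps of up to 5 kb and 440.6 kb with gaps of up to 25 kb. Of 53 alternative values 20 kept the direction and the size of the reported one. Size was taken as kept inside the interval of the reported value, or within a factor of 1.5 where it has none. No paired analysis was possible because there was 1 IP and 1 input library. The cause of these changes was not tested beyond the subset of regions each alternative takes. Depth limits the narrow regions most, since those of at most 50 bp in the pericentromere held 28 IP and 4 input reads in all.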

Other observations

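The scaffold 2LHet, which holds heterochromatic sequence of 2L that dm3 does not join to the arm, had 96 listed regions over the 0.367 Mb up to its last region. Their density was 261.3 regions per Mb (exact interval of the count from 211.7 to 319.1) and they covered 12% of the sequence, with a median width of 261 bp. With 19601 IP and 13471 input reads, the pooled ratio was 1.64 (interval 1.61–1.68) and the input RPKM over listed regions was 12.9. In the last 84.7 kb up to the end of the last listed region of the arm, 45.9% of the sequence was covered. The ratio there was 1.51 (interval 1.48–1.55), in regions with a median width of 757 bp. The ratios of the scaffold and of the end of the arm were not compared at like widths. The place of the scaffold relative to the end of the arm was not used.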
